A study of Mus musculus with 30 samples.

Results

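The integrated stress response was followed through 10 genes of the 56941 Ensembl genes counted in these cells: *Ppp1r15a*, *Atf4*, *Atf3*, *Ddit3*, *Trib3*, *Nupr1*, *Chac1*, *Asns*, *Sesn2* and *Cebpb*. They were chosen by symbol, and each was read from the row of its Ensembl gene. *Ddit3* had 2 rows, of which ENSMUSG00000116429 held 0 reads in all 30 libraries, so ENSMUSG00000025408 was used. All 10 genes passed the filter on low counts in every main model. A stricter filter used as an alternative, 10 counts or more in all libraries, left out *Atf3*. That gene had 5 reads in library A6 and 4 in A30.

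In this response, kinases that sense endoplasmic reticulum stress, amino acid shortage, haem shortage or double-stranded RNA phosphorylate the translation initiation factor eIF2. Protein synthesis as a whole then slows, while the mRNA of the transcription factor ATF4, held back by upstream reading frames in unstressed cells, is translated more. ATF4 raises the transcription of genes for amino acid supply, redox balance and cell fate, and *Ppp1r15a* closes the loop, since its protein GADD34 directs a phosphatase back to eIF2. Because ATF4 is controlled mostly at translation, its mRNA level is not a measure of its activity, and neither eIF2 phosphorylation nor protein was analysed here.

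The cells were mHypoA-2/12, a line (Clu177) from the adult mouse hypothalamus, immortalized with the large T antigen of SV40. Vehicle cells received 0.1% DMSO, and treated cells received cannabidiol (CBD), a non-intoxicating cannabinoid of the hemp plant, in the same 0.1% DMSO. The doses were 0.325 µM, 0.75 µM, 1.5 µM and 3 µM. Exposure lasted 6 h or 24 h, with 3 libraries for each of the 10 groups. The labels do not state that the 3 libraries of a group came from separate cultures, so p-values measure only the spread between these libraries. The line's markers were read first. Of 10 neuronal markers, 5 (*Tubb3*, *Map2*, *Stmn2*, *Nefl* and *Nefm*) averaged at least 10 CPM, as did 2 of 4 microglial markers (*Cx3cr1* and *Csf1r*). Of 8 hypothalamic peptide markers, 0 did, and their summed level was 0.88 to 6.67 CPM per library. Of these, *Cartpt*, *Kiss1* and *Trh* had 0 reads in every library. All 6 mesenchymal markers were above 10 CPM, with a summed level of 7619 to 9880 CPM per library against 120 to 193 CPM for the neuronal ones, 14.6 to 52.5 CPM for 4 microglial, at most 11.6 CPM for 4 astrocyte and at most 4.14 CPM for 4 oligodendrocyte markers (*Aqp4* and *Olig2* at 0).

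The libraries read the 3′ ends of polyadenylated transcripts and held between 1839621 and 4420675 reads on genes each. Levels below are CPM, the reads of a gene scaled to a fixed library size, after TMM normalization over the 30 libraries, and they compare the same gene between libraries, not one gene with another. Changes are log2 fold changes of CBD against the vehicle of the same time by edgeR's quasi-likelihood test, and the FDR is the Benjamini-Hochberg value across the 12012 genes tested at 6 h or the 12118 at 24 h. A gene is called changed at an FDR below 0.1. The doses of 1 time share the same 3 vehicle libraries, so their values are set side by side and not counted as separate evidence. Vehicle library A3 at 6 h had 17.9% of its uniquely mapped reads outside genes and 3574833 reads on genes, against 21.4% and 20.8% outside and 1839621 and 1919498 reads in A1 and A2, and the CBD libraries of 6 h had 17.7% to 21.1% outside. Several test results that rest on A3 are also given without it, while correlations were computed only with it. In bulk RNA, fewer cells of a kind and less RNA per cell cannot be told apart.

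The promoters are shown first, because ATF4 acts through a C/EBP-ATF response element (CARE, TGATGNAA) and many early stress genes carry a cyclic AMP response element (CRE, TGACGTCA). RefSeq promoter windows of GRCm38.p6, from 250 bases before to 50 bases after 1 RefSeq start of each gene, were found for all 10 members and read on both strands. For *Atf3* and *Nupr1* the window lay inside the annotated gene, whose 5′ end was at 191218039 and 126630861. A start at that end was not read. A CARE match was present in 5 members, against 3.97% of 32851 promoters of the same length. A CRE match was present in 1 member (1.79% of promoters), and an AP-1 match (TGANTCA) in 1 member (7.81% of promoters), *Ddit3*, at 242 bases before the start. No match lay in the windows of *Atf4*, *Sesn2* and *Cebpb*. The 30 bases around each CARE or CRE are given on the strand of the gene, with the match in capitals. TTNCATCA is the CARE read on the other strand.
Ppp1r15a (CRE, chr7:45526262-45526291, minus strand): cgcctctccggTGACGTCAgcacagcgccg
Asns (CARE, chr6:7693214-7693243, minus strand): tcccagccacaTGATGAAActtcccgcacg
Trib3 (CARE, chr2:152344028-152344057, minus strand): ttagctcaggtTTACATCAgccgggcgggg
Nupr1 (CARE, chr7:126625562-126625591, minus strand): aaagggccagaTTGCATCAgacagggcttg
Atf3 (CARE, chr1:191183425-191183454, minus strand): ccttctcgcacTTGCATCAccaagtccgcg
Chac1 (CARE, chr2:119351038-119351067, plus strand): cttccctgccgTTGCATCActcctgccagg
Counted by the first base of the match, the CRE of *Ppp1r15a* began 12 bases before the start. The CARE matches began 23 bases before it in *Asns*, 110 in *Atf3* and *Nupr1* and 193 in *Chac1*, and at base 15 after it in *Trib3*. A match is a description of the letters in the window and not a measured site.

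After 6 h, all 10 genes had a log2 fold change below 0 with the mean of the 4 CBD doses, and 3 were called lower: *Ppp1r15a* by 2.98-fold, *Nupr1* by 1.992-fold and *Atf4* by 1.40-fold. Over all genes tested, 90 were called (0.749%), 61 of them lower (0.508%). An unadjusted p below 0.05 with a lower level was reached by 8 of the 10 genes, against 5.39% of all genes tested. The median log2 fold change of the 10 genes was −0.56, against −0.02 over all genes tested, of which 53.5% were below 0. The 10 genes were chosen with earlier results of these data known, and the paper lists the 3 called ones among genes altered at 6 h. Counts of members set against all genes, here and below, are thus a description and not independent support. The summed level of the 4 astrocyte markers also separated the groups of 6 h, at 0.556 to 1.39 CPM with vehicle and 1.50 to 7.87 CPM with CBD. The vehicle reads were all of *Slc1a3*, a glutamate carrier, with 8 reads over the 3 libraries against 22 to 35 in each CBD group. *Aqp4* was at 0 in every library, and *Gfap* and *Aldh1l1* were at 0 at 6 h with vehicle, 1.5 µM and 3 µM. The summed markers of the other cell types overlapped between vehicle and CBD, and the part of these markers in the 6 h results was not tested. The 6 h values are plotted for each library with those of 24 h.

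**Figure D1:**
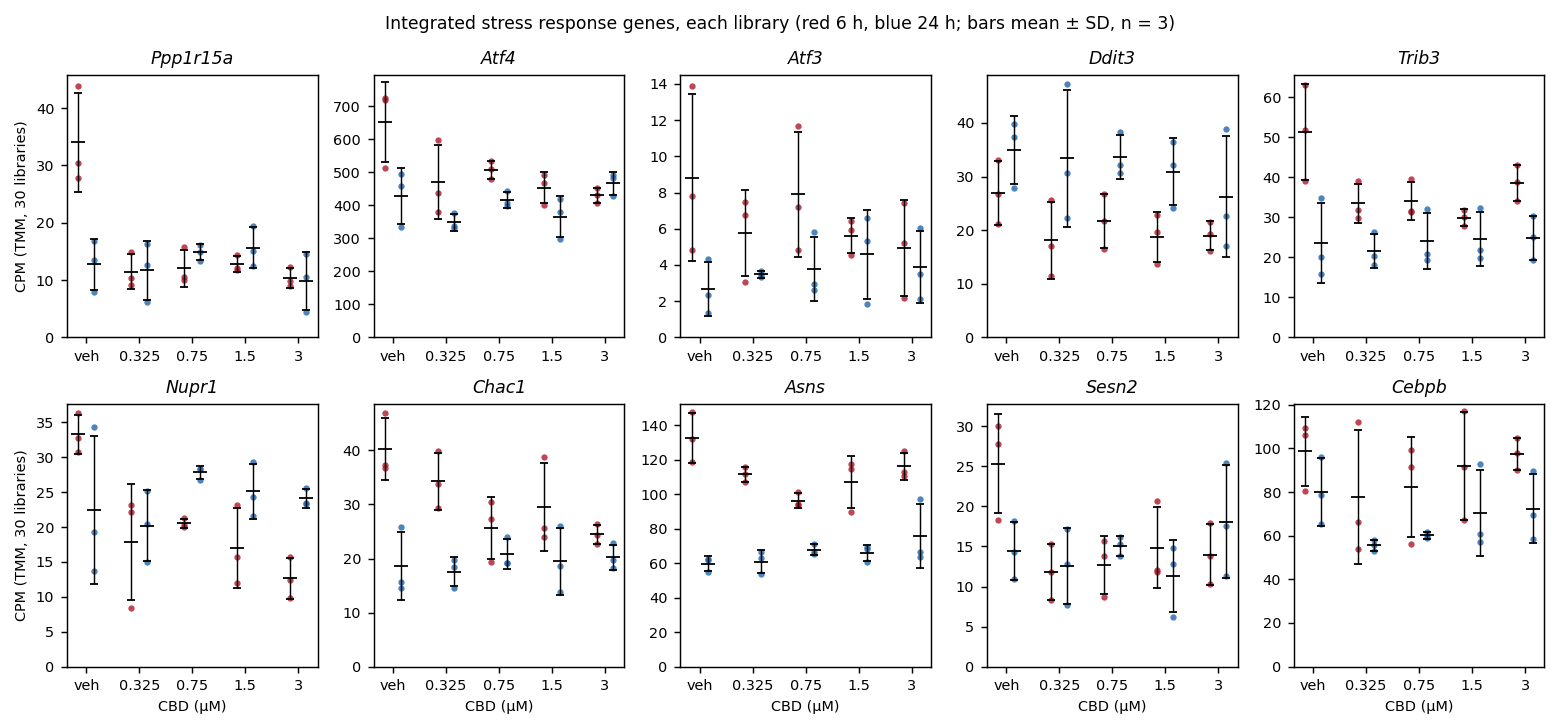
CPM of the 10 genes in each of the 30 libraries (y axis) by CBD dose in µM (x axis, veh is vehicle), red for 6 h and blue for 24 h, with bars for mean ± SD (n = 3). The 3 red vehicle points of Ppp1r15a lie at 27.8 to 43.9 CPM, above all 12 red CBD points at 9.02 to 15.8 CPM, while the blue points of the gene overlap.

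*Ppp1r15a* (ENSMUSG00000040435, chromosome 7, 45522916 to 45526268 on the minus strand of GRCm38) encodes GADD34, the inducible subunit that returns phosphorylated eIF2 to its active form. At 6 h it was at 27.8, 30.4 and 43.9 CPM in the vehicle libraries. It was at 10.3, 9.07 and 14.9 CPM at 0.325 µM and at 15.8, 10.5 and 10.003 CPM at 0.75 µM. It was at 14.4, 12.0 and 11.8 CPM at 1.5 µM and at 9.80, 12.2 and 9.02 CPM at 3 µM. Every CBD library lay below every vehicle library, and the ranges of the 4 doses overlapped. The level was 11.6 ± 2.30 CPM (SD, n = 12) with CBD against 34.0 ± 8.62 CPM (SD, n = 3) with vehicle, a log2 fold change of −1.58 (standard error 0.20, 95% interval −1.99 to −1.16, edgeR FDR = 0.000382). Without A3, the highest vehicle library, it was −1.33 (edgeR FDR = 0.00313), and the call held in all 20 alternatives of this comparison. The gene overlaps *Tulp2* on the opposite strand, and the strand setting of the counting was not given in the sources used here.

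*Ppp1r15a* was also the 1 member called at each dose. Its log2 fold change was −1.61 at 0.325 µM (standard error 0.28, edgeR FDR = 0.0333), where 0.2% of genes were called, and −1.52 at 0.75 µM (standard error 0.28, edgeR FDR = 0.0338), where 0.0749% were. It was −1.44 at 1.5 µM (standard error 0.28, edgeR FDR = 0.0477), where 0.0999% were called, and −1.74 at 3 µM (standard error 0.28, edgeR FDR = 0.0232), where 0.05% were. Unlike the pooled call, these calls were lost when certain libraries were left out. At 0.325 µM the call was lost without A14 (log2 fold change −1.46, edgeR FDR = 0.114), and at 0.75 µM without A11 (−1.43, edgeR FDR = 0.257) or A12 (−1.40, edgeR FDR = 0.535). At 1.5 µM it was lost without A2, A3, A7, A8 or A9 (−1.53 to −1.19, edgeR FDR = 0.114 to 0.226), and at 3 µM without A4, A5 or A6 (−1.87 to −1.65, edgeR FDR = 0.102 to 0.268). With only the 6 libraries of a comparison in the model, the call was kept at 3 µM and lost at the other doses (edgeR FDR = 0.209 to 0.291). DESeq2 gave the gene no adjusted p at 1.5 µM.

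*Nupr1* (ENSMUSG00000030717, chromosome 7) encodes a small stress-induced chromatin protein. At 6 h it was at 32.8, 36.3 and 30.8 CPM with vehicle. With CBD it ranged from 8.35 to 23.2 CPM with a median of 17.9 CPM over 12 libraries. It was at 9.80, 15.7 and 12.5 CPM at 3 µM. No CBD library reached the lowest vehicle library. *Nupr1* and *Ppp1r15a* were the members without overlap in this direction, which 0.724% of genes tested shared. The log2 fold change was −0.99 (standard error 0.22, edgeR FDR = 0.0437), and from the lowest to the highest dose it was −0.90, −0.69, −0.97 and −1.41. The last of these had an edgeR FDR of 0.1002 and a DESeq2 FDR of 0.0138. The pooled call was lost without vehicle library A1 (edgeR FDR = 0.1089) or A2 (−0.93, edgeR FDR = 0.209).

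*Atf4* (ENSMUSG00000042406, chromosome 15, 80255184 to 80257541 on the plus strand of GRCm38) encodes the transcription factor of the response. It was at 724, 718 and 513 CPM in the vehicle libraries of 6 h, and the third of these, A3, lay among the CBD libraries. With CBD it ranged from 380 to 596 CPM with a median of 460.4 CPM, and 10 of 12 libraries were below all vehicle libraries. The log2 fold change was −0.49 (standard error 0.12, edgeR FDR = 0.0647), and it was −0.63 without A3 (edgeR FDR = 0.00316). The call was lost without A1 (−0.40, edgeR FDR = 0.285) or A2 (−0.41, edgeR FDR = 0.336), and without A4, A5, A6, A7, A10 or A12 (−0.50 to −0.47, edgeR FDR = 0.104 to 0.131). From the lowest to the highest dose it was −0.47, −0.36, −0.53 and −0.60, with edgeR FDR from 0.207 to 0.577.

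The other members did not pass the threshold at 6 h. *Sesn2* (chromosome 4), a sestrin that restrains mTORC1 when leucine is short, was at 30.03, 27.7 and 18.3 CPM with vehicle and at 8.35 to 20.7 CPM with CBD. In 11 of 12 CBD libraries it was below all vehicle libraries, and the log2 fold change was −0.91 (standard error 0.24, edgeR FDR = 0.102), or −1.12 without A3 (edgeR FDR = 0.0269). It was also past the threshold without A8 or A15, with RLE size factors, with no filter on low counts, with a covariate for the share of reads outside genes, and with DESeq2 (FDR = 0.0623). *Trib3* (chromosome 2), a pseudokinase that inhibits AKT and restrains ATF4, was at 51.7, 63.0 and 39.2 CPM with vehicle and at 27.9 to 43.0 CPM with CBD. Its log2 fold change was −0.58 (standard error 0.16, edgeR FDR = 0.11002), or −0.76 without A3 (edgeR FDR = 0.0173), −0.61 without A14 (edgeR FDR = 0.0883), −0.54 with that covariate (edgeR FDR = 0.0457) and −0.58 by DESeq2 (FDR = 0.0835). For *Sesn2* and *Trib3*, as for *Atf4*, A3 was the lowest of the vehicle libraries, and their overlap with CBD was through A3.

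*Chac1* (chromosome 2), an enzyme that degrades glutathione, was at 36.7, 37.3 and 46.9 CPM with vehicle and at 19.4 to 39.8 CPM with CBD, with 10 of 12 libraries below all vehicle libraries, at −0.53 on the log2 scale (standard error 0.17, edgeR FDR = 0.232). *Asns* (chromosome 6), the asparagine synthetase, was at 132, 148 and 119 CPM with vehicle and at 89.9 to 125 CPM with CBD, with 11 of 12 libraries below all vehicle libraries, at −0.30 on the log2 scale (standard error 0.11, edgeR FDR = 0.299). These genes overlapped between the groups by 1 or 2 CBD libraries.

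The stress transcription factors downstream of ATF4 overlapped more. *Atf3* (chromosome 1), a repressor of the CREB family, was at 7.78, 4.80 and 13.9 CPM with vehicle and at 2.15 to 11.7 CPM with CBD (log2 fold change −0.62, 95% interval −1.38 to 0.13, edgeR FDR = 0.599). Without A3, which held the highest level of the gene, the log2 fold change was −0.07. At 0.75 µM its value was −0.22, and 0.32 without A3. *Ddit3* (chromosome 10), which encodes the pro-apoptotic factor CHOP, was at 21.1, 33.1 and 26.7 CPM with vehicle and at 11.5 to 26.7 CPM with CBD (log2 fold change −0.49, 95% interval −0.94 to −0.04, edgeR FDR = 0.436). *Cebpb* (chromosome 2), the bZIP partner C/EBPβ, was at 106.2, 109.4 and 80.2 CPM with vehicle and at 54.0 to 117 CPM with CBD (log2 fold change −0.18, 95% interval −0.56 to 0.20, edgeR FDR = 0.822). *Ddit3* shares its locus with *Mars* and *Cebpb* with *Tmem189*, both on the opposite strand, *Sesn2* overlaps *Gm12981* and *Atf3* overlaps *Gm24748*, and reads of overlapping genes cannot be told apart.

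The 5 members with a CARE match in the window had 6 h log2 fold changes from −0.99 (*Nupr1*) to −0.30 (*Asns*). The 5 without a match there ranged from −1.58 (*Ppp1r15a*) to −0.18 (*Cebpb*), so the ranges overlapped. Elements outside the windows were not searched, so a gene without a match may still carry a CARE. Whether a CARE goes with the change was not tested.

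Whether the level followed dose at 6 h was asked among the 4 CBD groups. No member passed the test of any difference among the doses (edgeR, 0 of 10 called, with 0 of 10 at an unadjusted p below 0.05 and 0 called by DESeq2), and 0% of genes tested were called, with 3.76% at such a p. The slope over log2 dose also gave 0 called members by edgeR and DESeq2 and 0 at an unadjusted p below 0.05, with 0% of genes called and 4.27% at such a p. The slopes were between −0.16 per doubling of dose for *Nupr1* (95% interval −0.36 to 0.03) and 0.11 for *Cebpb* (95% interval −0.03 to 0.25), and that of *Ppp1r15a* was −0.03 (95% interval −0.21 to 0.16). All 10 genes had a log2 fold change below 0 at each dose, against 52.4%, 53%, 52.1% and 52% of all genes tested in rising order of dose, and those of *Cebpb* at 1.5 µM (−0.10) and 3 µM (−0.01) and of *Atf3* at 0.75 µM turned above 0 in 1 or more alternatives.

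**Figure D2:**
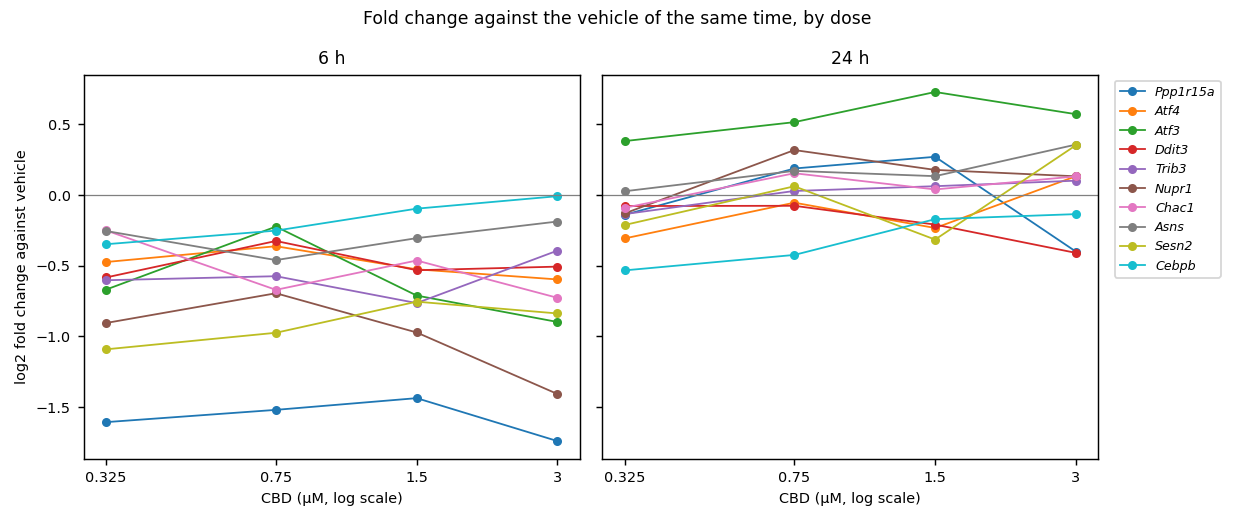
Log2 fold change against the vehicle of the same time (y axis) by CBD dose in µM (x axis, log scale), with 1 line per gene, at 6 h on the left and 24 h on the right. At 6 h all lines lie below 0, with Ppp1r15a lowest at −1.74 to −1.44, and at 24 h they lie on both sides of 0.

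After 24 h, no member was called at any dose or with the doses together. The counts were 0 of 10 by edgeR and 0 of 10 by DESeq2 in each of these 5 comparisons, where 0.066%, 0.0825%, 0.0413% and 0.00825% of all genes were called in rising order of dose and 0.107% with the doses together. An unadjusted p below 0.05 was reached by 2, 1, 0 and 1 members at the 4 doses, against 8.33%, 7.63%, 7.34% and 9.16% of all genes. With the doses together, 1 member, *Cebpb*, reached it, against 6.73%. The median log2 fold change of the 10 genes was −0.00, with 5 of 10 below 0, against 51.4% of all genes.

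*Ppp1r15a* was at 16.8, 7.96 and 13.5 CPM in the vehicle libraries of 24 h and at 4.45 to 19.4 CPM with CBD (median 13.9 CPM, n = 12). The vehicle libraries thus lay inside the range of the CBD libraries, and below all vehicle libraries of 6 h. The log2 fold change was −0.02 with a 95% interval of −0.58 to 0.54, which does not reach the value of 6 h. *Nupr1* was at 13.7, 19.2 and 34.3 CPM with vehicle and at 14.9 to 29.4 CPM with CBD, a log2 fold change of 0.12 (95% interval −0.29 to 0.54). *Atf4* was at 333, 458 and 494 CPM with vehicle and at 299 to 491 CPM with CBD, a log2 fold change of −0.12 (95% interval −0.33 to 0.10). For *Nupr1* the 3 vehicle libraries spanned the whole range of the 12 CBD libraries.

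*Cebpb* was at 65.5, 78.6 and 96.3 CPM with vehicle at 24 h and at 53.0 to 93.0 CPM with CBD, with 9 of 12 libraries below all vehicle libraries. Its log2 fold change was −0.32 (standard error 0.14, edgeR FDR = 0.715), and −0.53, −0.42, −0.17 and −0.13 from the lowest to the highest dose. *Asns* was the member with the most CBD libraries above vehicle. It was at 54.7, 62.0 and 62.3 CPM with vehicle and at 53.6 to 97.0 CPM with CBD, with 10 of 12 libraries above all vehicle libraries, and its log2 fold change was 0.17 (standard error 0.12, edgeR FDR = 0.887). The highest value was that of library A16 at 3 µM, where the other 2 libraries were at 63.8 and 66.2 CPM.

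Among the doses of 24 h, 1.93% of all genes differed and 3.13% had a slope over log2 dose, while 0 of 10 members passed either test by edgeR or DESeq2. An unadjusted p below 0.05 was reached by 1 and 2 members in these tests, against 14.5% and 16.5% of all genes. *Atf4* was at 330, 338 and 378 CPM in the libraries of 0.325 µM, and at 443, 398 and 407 CPM in those of 0.75 µM. In those of 1.5 µM it was at 299, 420 and 379 CPM, and in those of 3 µM at 483, 426 and 491 CPM. The libraries of 3 µM lay above those of 0.325 µM without overlap, while those of 1.5 µM reached from below to above the latter. The slope was 0.11 per doubling (standard error 0.04, edgeR FDR = 0.168), and it was 0.12 without A17 (edgeR FDR = 0.0803), the 1 setting in which a member passed. The test of any difference among the doses gave *Atf4* an edgeR FDR of 0.202. *Cebpb* had a slope of 0.14 (standard error 0.05, edgeR FDR = 0.196).

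Whether the change with CBD differed between the times was tested on all 30 libraries and 12790 genes, as the change at 24 h minus the change at 6 h. Of the 10 members, 1 was called, *Ppp1r15a*, against 0.235% of all genes. The difference was 1.56 on the log2 scale (standard error 0.36, 95% interval 0.84 to 2.28, edgeR FDR = 0.0656). DESeq2 also called *Ppp1r15a* and no other member. The call was lost without A3 (1.32, edgeR FDR = 0.317) and without A4, A5, A11, A24, A25, A28, A29 or A30 (1.32 to 1.83, edgeR FDR = 0.1002 to 0.259), and when the covariate for reads outside genes was added (1.44, edgeR FDR = 0.118). *Nupr1* had a difference of 1.12 (standard error 0.32, edgeR FDR = 0.233), which was past the threshold without A30 (1.56, edgeR FDR = 0.0855), with that covariate (1.42, edgeR FDR = 0.0345) and with no filter on low counts (1.09, edgeR FDR = 0.0559). The other 8 members had edgeR FDR values of 0.407 to 0.968. The difference was above 0 in 9 of 10 members, while 47.7% of all genes were below 0, and it was above 0 with an unadjusted p below 0.05 in 7, against 2.94% of all genes with such a p and a difference above 0.

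**Figure D3:**
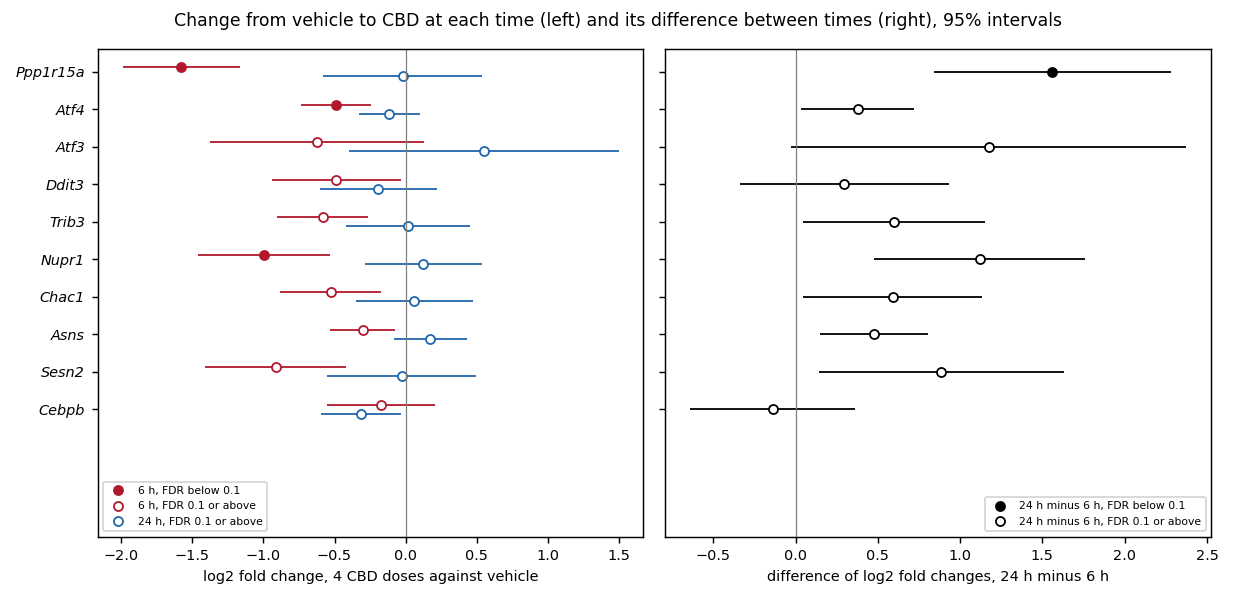
Log2 fold change of the 4 CBD doses against vehicle with 95% intervals (left, red for 6 h and blue for 24 h), and the difference of these changes, 24 h minus 6 h (right), for the 10 genes. Filled points are called by edgeR at an FDR below 0.1: Ppp1r15a, Atf4 and Nupr1 at 6 h, none at 24 h, and Ppp1r15a in the difference between the times at 1.56.

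The difference between the times was then read within each treatment, where time and any difference in how the groups of 6 h and 24 h were cultured and collected cannot be told apart. In vehicle, 7 of the 10 members were called lower at 24 h than at 6 h, where 26.7% of all genes were called and 14.2% were called lower. *Atf3* was lower by 1.79 on the log2 scale (standard error 0.53, edgeR FDR = 0.0134), with 2.33, 4.31 and 1.35 CPM at 24 h. *Ppp1r15a* fell by 1.42 (standard error 0.31, edgeR FDR = 0.00126), *Asns* by 1.15, *Chac1* by 1.13, *Trib3* by 1.12, *Sesn2* by 0.80 and *Atf4* by 0.60. Some vehicle libraries of 6 h and 24 h came near each other. The lowest of 6 h and the highest of 24 h were 18.3 and 18.2 CPM for *Sesn2*. They were 513 and 494 CPM for *Atf4*, and 4.80 and 4.31 CPM for *Atf3*. *Nupr1* was at −0.58 (edgeR FDR = 0.139), and at −1.01 without A30 (edgeR FDR = 0.0214) and −0.93 with the covariate (edgeR FDR = 0.01995). For *Atf3* the call was lost without A3 (−1.23, edgeR FDR = 0.182). For *Sesn2* it was lost without A1, A2, A28 or A29 (−0.79 to −0.61, edgeR FDR = 0.139 to 0.285) and with no filter on low counts (edgeR FDR = 0.102).

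In the 12 CBD libraries of each time, 8 of 10 members were called, where 53.6% of all genes were, so the count is read against that share. Lower at 24 h were *Asns* (−0.68), *Atf3* (−0.62), *Chac1* (−0.54), *Trib3* (−0.52), *Cebpb* (−0.43) and *Atf4* (−0.23). Higher at 24 h were *Ddit3* (0.68, standard error 0.14) and *Nupr1* (0.54, standard error 0.15). *Ppp1r15a* was at 0.14 (95% interval −0.21 to 0.49) and *Sesn2* at 0.09 (95% interval −0.26 to 0.43) and were not called. *Ddit3* and *Nupr1* thus went the opposite way to the other called genes. The call of *Atf3* was lost without A5, A10, A17, A21 or A24 (−0.55 to −0.50, edgeR FDR = 0.1004 to 0.130).

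**Figure D4:**
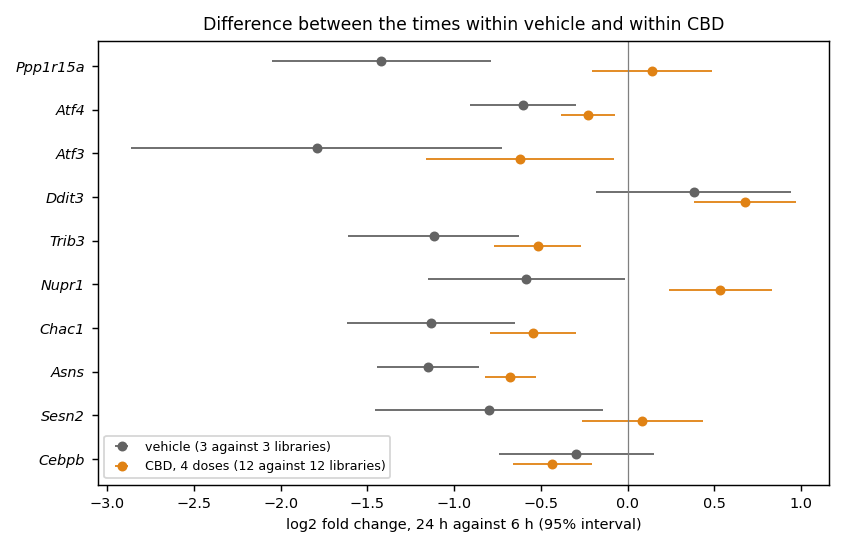
Log2 fold change of 24 h against 6 h (x axis, points with 95% intervals) within vehicle (grey, 3 against 3 libraries) and within the 4 CBD doses (orange, 12 against 12 libraries). Ppp1r15a lies at −1.42 in vehicle and at 0.14 with CBD, and Nupr1 at −0.58 and 0.54.

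Other genes of the pathway were read from lists. Of 41 further targets of ATF4, 38 were tested at 6 h with the doses together. By edgeR, 3 were called lower and 0 higher. At an unadjusted p below 0.05, 11 were lower and 1 was higher. The log2 fold change was below 0 in 33 of 38, with a median of −0.21. Over all genes tested, 0.508% were called lower, 5.39% were lower at such a p and 53.5% were below 0. DESeq2 called 4 lower, and the share of all genes it called lower is not given here. The lists were chosen with earlier results of these data known, so these counts are a description and not separate support. The 3 genes called lower by edgeR, named next, are also among those the paper lists as altered at 6 h. *Gdf15*, a secreted stress cytokine that acts on the hindbrain, was at 16.4 to 27.7 CPM with vehicle and at 3.18 to 14.2 CPM with CBD, a log2 fold change of −1.38 (standard error 0.27, edgeR FDR = 0.0161). *Slc7a1*, a carrier of cationic amino acids, was at 154 to 186 CPM with vehicle and at 106 to 132 CPM with CBD, a log2 fold change of −0.50 (standard error 0.11, edgeR FDR = 0.0308). *Bbc3*, which encodes the BH3-only protein PUMA and is also a p53 target, was at 52.8 to 57.6 CPM with vehicle and at 24.0 to 49.3 CPM with CBD, at −0.59 on the log2 scale (standard error 0.14, edgeR FDR = 0.0615). In all 3 genes the 12 CBD libraries lay below the 3 vehicle libraries. *Slc7a11*, the cystine carrier of glutathione synthesis, overlapped in 2 CBD libraries, at −0.97 on the log2 scale (standard error 0.27, edgeR FDR = 0.130). The calls of *Gdf15* and *Slc7a1* were lost without A2 (−1.23, edgeR FDR = 0.132, and −0.42, edgeR FDR = 0.245), and that of *Bbc3* without A1, A2, A4, A6, A9 or A10 (−0.63 to −0.57, edgeR FDR = 0.102 to 0.232). The call of *Slc7a11* was gained without A3 (−1.18, edgeR FDR = 0.0461) or A13 (−1.04, edgeR FDR = 0.0875), with no filter (−0.95, edgeR FDR = 0.0561), with the covariate (−0.94, edgeR FDR = 0.0601) and by DESeq2 (−0.98, FDR = 0.0960).

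The kinases, eIF2 and eIF2B subunits and phosphatase parts upstream of ATF4 were called in 0 of 19 tested genes at 6 h by edgeR and by DESeq2, with 1 higher and 1 lower at an unadjusted p below 0.05 and a median log2 fold change of −0.15. These were *Eif2b4*, a subunit of the exchange factor of eIF2 (0.39, standard error 0.14, edgeR FDR = 0.263), and *Ppp1r15b*, the constitutive partner of the eIF2 phosphatase (−0.48, standard error 0.18, edgeR FDR = 0.294). The eIF2 subunits *Eif2s1* (−0.31, edgeR FDR = 0.511) and *Eif2s2* (−0.21, edgeR FDR = 0.528) followed. Without A3, *Ppp1r15b* was at −0.11, *Eif2s1* at −0.04 and *Eif2s2* at −0.36, the last past the threshold (edgeR FDR = 0.0846). Chaperones and sensors of the IRE1 and ATF6 arms, which answer endoplasmic reticulum stress without ATF4, were called in 0 of 17 genes by edgeR and by DESeq2, with 1 higher (*Pdia4*, 0.46, edgeR FDR = 0.466) and 1 lower (*Dnajb9*, −0.52, edgeR FDR = 0.330) at an unadjusted p below 0.05 and a median of −0.00. *Pdia4* was past the threshold in 2 of 20 alternatives, with the covariate (0.61, edgeR FDR = 0.00453) and with no filter (0.48, edgeR FDR = 0.0774). Without A3, *Pdia4* was at 0.14 and *Dnajb9* at −0.23. *Hyou1* (0.25, edgeR FDR = 0.691) and *Atf6* (−0.21, edgeR FDR = 0.694) were the next by p. Over all genes tested, 0.749% were called. At an unadjusted p below 0.05, 586 of 12012 were higher and 648 were lower. Beside these shares, 0 calls in lists of 19 and 17 genes do not set the lists apart from other genes. The range and the count of these lists are a description, and no list was tested as a set.

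At 24 h, 0 of 38 further ATF4 targets, 0 of 19 regulators and 0 of 17 chaperones were called by edgeR with the doses together, and 0 by DESeq2, with 1, 0 and 3 at an unadjusted p below 0.05. Over all genes tested, edgeR called 0.107%, and 6.73% reached such a p. The medians of the lists were −0.01, 0.00 and −0.02. In the difference between the times, edgeR called 0 genes of any of these lists. At an unadjusted p below 0.05, 6 ATF4 targets were above 0 and 2 below, 1 regulator was above and 1 chaperone was below, against 2.94% of all genes above 0 and 458 of 12790 below at such a p. DESeq2 called 2 of the ATF4 targets higher, *Bbc3* (0.74, DESeq2 FDR = 0.0742) and *Slc7a1* (0.53, DESeq2 FDR = 0.0988). *Bbc3* also passed by edgeR without A13 (0.77, edgeR FDR = 0.0998), *Gdf15* with the covariate (1.53, edgeR FDR = 0.0345), and *Pdia4* with no filter (−0.82, edgeR FDR = 0.00528). Within vehicle, 36 of 38 further ATF4 targets had a log2 fold change below 0 from 6 h to 24 h (6634 of 12790 over all genes), with a median of −0.51 as against −0.96 for the 10 members and −0.03 over all genes. By edgeR, 21 of them were called lower and 2 higher, against 14.2% of all genes called lower and 1600 of 12790 called higher. These vehicle counts rest on the same 6 h vehicle libraries as the 6 h change with CBD, so they are not separate evidence.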

How the data were processed

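RNA of 30 samples of mHypoA-2/12 cells was made into QuantSeq 3′ mRNA-Seq FWD libraries. According to the study's methods and the submitters' processing notes, the authors checked reads with FastQC 0.11.9, trimmed them with Flexbar, aligned them with STAR 2.7.5c to GRCm39, and counted reads per Ensembl gene with HTSeq 1.99.2. The deposited values are unnormalized read counts of each gene, in a separate table for every library. Lines for reads outside genes, ambiguous reads and multiple alignments were left out of library sizes, and the share of uniquely mapped reads outside genes (17.7% to 22.2% per library) was kept as a covariate for an alternative.

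The tests ran in edgeR 4.0.16 under R 4.3.3 (filterByExpr on the groups, TMM, glmQLFit and glmQLFTest), and with DESeq2 1.42.0 as an alternative. The 15 libraries of a time shared a model with 1 mean for each group. The 30 libraries were fitted together for comparisons between times. The steps were tested on simulated data. Levels used TMM over all 30 libraries, and log2 CPM for correlations a prior count of 2. Standard errors are the log2 fold change divided by the root of F. The spread between libraries is in these errors, and the depth limits genes with few reads most.

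GENCODE M21 (GRCm38) named 51948 of the 56941 genes and gave their positions. Positions are thus on an older build than the counts. Promoters came from RefSeq on GRCm38.p6. The genes named were all 10 members, list genes past the threshold with the doses together or between the times, the 4 genes of each list with the smallest unadjusted p at 6 h, and the 5 genes most like *Ppp1r15a* and *Atf4*. Members and lists were chosen with earlier results of these data known.

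The alternatives were DESeq2, RLE size factors, no low-count filter, a stricter filter (10 counts or more in all libraries), the covariate above, only the groups compared, and each library left out. No batch is labelled.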

Additional observations from a re-analysis of the deposited data

Results flagged for a closer look

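The change of *Ppp1r15a* from vehicle to CBD differed between the times by 1.56 on the log2 scale (24 h minus 6 h, edgeR interaction test, FDR = 0.0656). It was lower in 12 of 12 CBD libraries than in all vehicle libraries at 6 h, and in 2 of 12 at 24 h. The vehicle libraries of 6 h held 265 reads of the gene in all, and they enter both the 6 h change and the difference between the times. Groups of 3 libraries are too small for a search for outlying samples.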

How the results depend on the processing

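No paired analysis was possible because the library labels run from A1 to A30 with no number in common across groups. Of the alternatives computed, 2033 kept direction and side of the threshold, 53 lost it, 52 gained it and 43 turned direction, none of the last with a call on either side. Causes were not tested. With only the groups compared, 0 members were called at 0.325, 0.75 and 1.5 µM at 6 h (1 in the main result at each dose). With the covariate, 4, 4 and 3 were called at 0.325, 1.5 and 3 µM, and 5 with the doses together (3 in the main result). With DESeq2, 3 were called at 3 µM and 5 with the doses together. The share of all genes that DESeq2 called at 6 h is not given here, so these counts cannot be set against it. With no filter, 2 were called at 1.5 µM, 3 at 3 µM and 2 between the times. Over all genes, the doses together gave 263 calls with no filter and 329 with the covariate at 6 h (90 in the main result). At 24 h they gave 29 with DESeq2, 46 with no filter and 0 with the covariate (13 in the main result), and the difference between times gave 49 with DESeq2 and 87 with no filter (30). Single doses gave 0 to 322 genes at 6 h (6 to 24 in the main results) and 0 to 288 at 24 h (1 to 10). Any difference among doses gave 0 to 15 at 6 h (0) and 1 to 1085 at 24 h (234), and the slope 0 to 1 (0) and 0 to 1394 (379).

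Leaving out 1 library gave 0 to 3 members at 0.325 µM, 0 to 4 at 0.75 µM, 0 to 2 at 1.5 µM, 0 to 3 at 3 µM and 1 to 5 with the doses together at 6 h, 0 to 1 for the slope at 24 h and 0 to 1 between the times. The highest counts of the 6 h comparisons were those without A3. Over all genes, it gave 51 (without A2) to 304 (without A3) with the doses together at 6 h, 1 (without A30) to 47 (without A16) at 24 h, and 2 (without A29) to 45 (without A16) between the times.

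The log2 fold changes that turned direction were uncalled. With no filter, *Cebpb* at 3 µM and 6 h was 0.011. With the covariate it was 0.070 there, 0.18 at 1.5 µM and 24 h and 0.016 between the times, while *Asns* at 0.325 µM and 24 h was −0.13, *Atf4* at 0.75 µM and 24 h 0.0027 and *Trib3* with the doses together at 24 h −0.51. Leaving out 1 library at 6 h gave −0.60 to 0.32 for *Atf3* at 0.75 µM, and for *Cebpb* −0.30 to 0.088 at 1.5 µM and −0.15 to 0.080 at 3 µM. At 24 h it gave −0.44 to 0.16 for *Ppp1r15a* and −0.043 to 0.12 for *Asns* at 0.325 µM, −0.051 to 0.46 for *Ppp1r15a* and −0.21 to 0.069 for *Atf4* at 0.75 µM, and −0.029 to 0.25 for *Atf4* and −0.32 to 0.015 for *Cebpb* at 3 µM. With the doses together at 24 h it gave −0.26 to 0.25 for *Ppp1r15a*, −0.27 to 0.0038 for *Atf4*, −0.22 to 0.40 for *Trib3*, −0.15 to 0.57 for *Nupr1*, −0.080 to 0.36 for *Chac1* and −0.21 to 0.17 for *Sesn2*, and between the times −0.27 to 0.013 for *Cebpb*.

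Depth limits *Atf3* most, which had 27 reads over the 3 vehicle libraries of 24 h, and no p bears on whether groups below the threshold were alike.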

Other observations

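Over the 30 libraries, with the mean of each time subtracted, the genes outside the members whose log2 CPM was most like that of *Ppp1r15a* were *Zfas1* (Pearson r = 0.72), *Nr4a1* (0.72), *Junb* (0.69), *Rdh10* (0.67) and *Nfkbia* (0.66). *Nr4a1*, *Junb* and *Nfkbia* are known as genes induced early after stimulation, and *Zfas1* is a host gene of small nucleolar RNAs. Their r was 0.75, 0.80, 0.75, 0.85 and 0.57 among the 15 libraries of 6 h, and 0.67, 0.68, 0.65, 0.48 and 0.78 among those of 24 h. The genes most like *Atf4* were *Rbm8a* (0.86), *Plin2* (0.86), *Sae1* (0.85), *Aldh2* (0.84) and *Nsun2* (0.84). None of these was the same for both genes. The libraries of 6 h include the vehicle group with its higher levels, and all values share library depth and normalization, so these are descriptions.

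With the mean of each group subtracted, over the 30 libraries, *Atf4* went with *Sesn2* (r = 0.62), *Nupr1* (0.59) and *Trib3* (0.57), and *Atf3* with *Chac1* (0.61). *Ppp1r15a* had r between −0.49 (*Trib3*) and 0.15 (*Nupr1*) with the other 9 members, and −0.27 with *Atf4*. The lowest value of all 45 pairs was that of *Atf3* and *Cebpb* (−0.61). Within groups, r of *Ppp1r15a* and *Atf4* was thus below 0 in these libraries, although both were lower with CBD at 6 h. Library A3 had the highest *Ppp1r15a* (43.9 CPM) and the lowest *Atf4* (513 CPM) of its group. The value was not computed without A3 and was not tested.

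The summed mesenchymal markers were at 8474 to 8949 CPM in the vehicle libraries of 6 h and at 7767 to 9880 CPM in the CBD libraries, and the summed neuronal markers at 157 to 193 CPM and at 132 to 187 CPM. Those of astrocytes did not overlap (0.556 to 1.39 CPM and 1.50 to 7.87 CPM). At 24 h the astrocyte sums did overlap, at 3.65 to 5.82 CPM with vehicle and 1.77 to 11.6 CPM with CBD. Their part in the results above was not tested.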
